A study of Mus musculus with 6 samples.

Results

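The 10 genes described here encode the chains of the mouse MHC class II molecules, the chaperones that load them with peptide, and Ciita, the protein that switches their transcription on. They were chosen by name, and all 10 were found among the 57132 Ensembl genes of the count table. The table holds mRNA sequencing of 6 cultures of bone marrow-derived dendritic cells, immune cells grown from marrow progenitors with the cytokine GM-CSF. Donor mice were C57BL/6 females of 6 to 8 weeks, and their marrow was kept until day 5 in dialyzed serum medium that contained 15 ng/mL GM-CSF. One group, 0Q, received no queuine (3 cultures), and the other, 100Q, received queuine at 100 nM (3 cultures). The labels name no genetic change in either group. The cultures were plated in triplicate, and separate animals are not named for them. A p-value here therefore measures the spread between these cultures only, which may be technical.

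A class II molecule is a pair of one alpha and one beta chain that binds peptides in the endosome and shows them at the cell surface to CD4 T cells. H2-Aa and H2-Ab1 form I-A, and H2-Ea and H2-Eb1 would form I-E. The invariant chain Cd74 fills the groove of new pairs and guides them to the endosome. There H2-DM (H2-DMa with H2-DMb1 or H2-DMb2) exchanges the remnant of Cd74 for peptide, and H2-DO (H2-Oa with H2-Ob) restrains H2-DM. Ciita does not bind DNA itself and docks on RFX, CREB and NF-Y proteins bound to the X and Y boxes of class II promoters. Queuine is the base from which cells build queuosine, the modified nucleoside with which certain tRNAs read the last letter of Asn, Asp, His and Tyr codons. The series title names MHC class II expression as a subject of the study, and the comparison of 0Q with 100Q bears on the mRNA of these genes alone.

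The promoters are shown because Ciita acts through the X and Y boxes of class II promoters. The RefSeq promoter table (GRCm38.p6) held 7 of the 10 members, and H2-Ab1, Cd74 and Ciita were not matched. The 250 bases before the start site were searched on both strands. The printed windows run 5′ to 3′ on the strand of the gene, with the Y box letters ATTGG in capitals and, where found, the X box core (AGNNAC directly followed by NNATG) in capitals. Each of them matched the GRCm39 genome at 1 place on chromosome 17. H2-Eb2, a class II gene that is not among the 10, is added for comparison.
H2-Eb1 (chr17:34524737-34524791, plus strand): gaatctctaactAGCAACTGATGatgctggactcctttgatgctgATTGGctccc
H2-Ob (chr17:34457777-34457831, plus strand): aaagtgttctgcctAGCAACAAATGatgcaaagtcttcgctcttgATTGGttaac
H2-Eb2 (chr17:34544504-34544558, plus strand): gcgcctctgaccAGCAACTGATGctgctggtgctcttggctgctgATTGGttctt
H2-DMb2 (chr17:34364088-34364142, plus strand): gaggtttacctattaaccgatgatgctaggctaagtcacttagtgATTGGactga
H2-Oa (chr17:34311265-34311319, plus strand): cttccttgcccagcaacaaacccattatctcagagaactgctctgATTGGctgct
H2-Aa (chr17:34506836-34506890, minus strand): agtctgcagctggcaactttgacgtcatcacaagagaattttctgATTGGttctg

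The Y box letters were found in 7 of the 7 members with an entry, each time on the strand of the gene. Among all 32851 promoter entries 33.8% held them on either strand and 19.7% on the gene's strand. Counted from the start site, the Y box began at -43 in H2-Oa, -48 in H2-Aa, -57 in H2-Ob, -59 in H2-Eb1, -61 in H2-DMb1 and -90 in H2-DMb2. In H2-DMa only the second of its 2 entries held the letters, at -198 from that start. The X box core was found in 4 of the 7 members (H2-Eb1, H2-DMb1, H2-Ob and H2-Oa), against 2.60% of all entries. It lay 33 bases before the Y box in H2-Eb1, 34 in H2-DMb1 (as AGTAACTGATG) and 31 in H2-Ob. In H2-Oa the only match to the full core lay farther upstream, at -141 from the start. The printed H2-Oa window also holds letters of the form AGNNAC before its Y box, which NNATG does not follow, so they were not counted. A core placed 25 to 40 bases before a Y box, a spacing set after these promoters were seen, occurred in 14 of the 32851 entries. Those entries belong to 13 genes, of which 4 are class II genes, namely H2-DMb1, H2-Eb1, H2-Eb2 and H2-Ob. The X2 letters TGNGTCA were in 2 of the 7 members, H2-DMa and H2-Oa, against 12.96% of entries. In H2-DMa they began at -86, nearer the start than its Y letters, and in H2-Oa at -132 on the opposite strand. The printed H2-Aa window holds the letters tgacgtca before its Y box, which do not match TGNGTCA, so they were not counted. These matches describe letters only, and no binding was measured.

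Class II transcripts made up a small share of the counts in every culture. Without queuine the 10 genes took 0.125%, 0.118% and 0.120% of all counts (replicates 1, 2 and 3), and with queuine 0.130%, 0.124% and 0.127%. The groups overlapped, with means of 0.121% ± 0.00363 and 0.127% ± 0.00324 (SD, n = 3 each). They differed by 0.00604 percentage points, with a two-sided exact permutation p of 0.2. With 3 against 3 libraries that test cannot go below 0.1. H2-Aa alone gave 46.9% of the members' counts, and H2-Aa, H2-Ab1, H2-Eb1 and H2-DMa together gave 92.6%. All these shares include Cd74 at its measured level, which is low and uncertain, as described below. These are levels in bulk RNA, in which fewer class II-positive cells and less RNA per cell cannot be told apart.

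**Figure D1:**
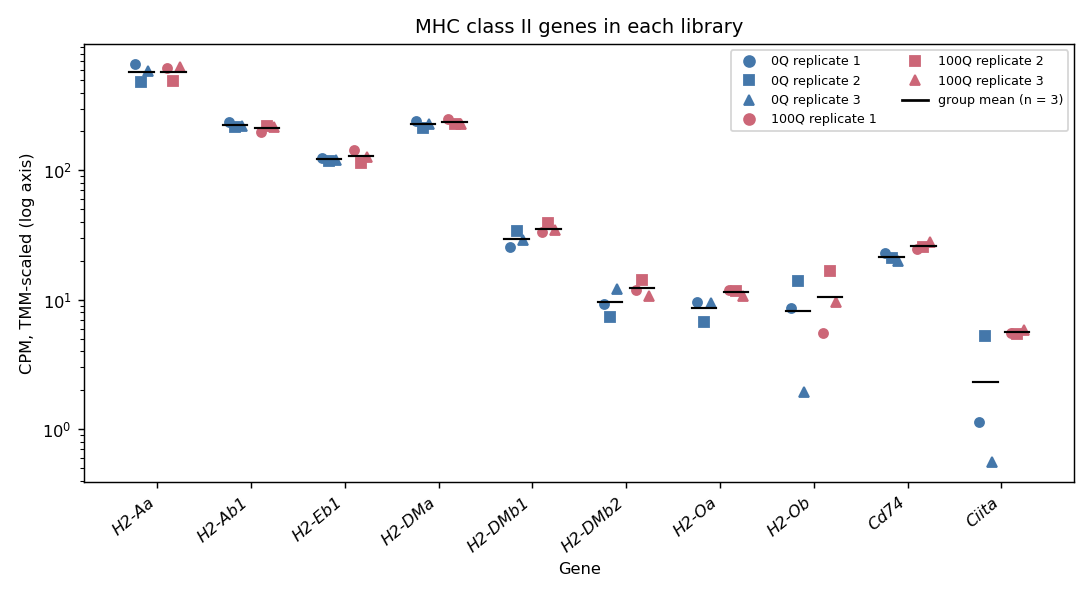
Level of each of the 10 genes in each of the 6 libraries, as TMM-scaled counts-per-million values (CPM) on a log axis, with 0Q in blue, 100Q in red, a marker shape for each replicate number and a black line at each group mean. H2-Aa sits near 580 CPM in both groups, and the 0Q libraries of Ciita and the libraries of H2-Ob within each group are widely spread.

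Across the comparison, 0 of the 10 members passed the test, as did 0 of all 10554 tested genes (0% called). The test was edgeR's quasi-likelihood test with Benjamini-Hochberg adjustment over all tested genes and a threshold of 0.05, and each member had an adjusted p of 0.999. At an unadjusted p under 0.05 there were 0 members and 309 genes, 2.93% of those tested. DESeq2 and limma-voom also called 0 genes. At an unadjusted p under 0.05 DESeq2 had 356 genes and limma-voom 302, with 0 members in either. All 10 members passed the filter on low counts. In this fit 9 of the 10 estimates were above 0 in 100Q, or 8 with DESeq2's scaling, under which H2-Aa was just below 0. The count was 7 without 0Q replicate 2 or without 100Q replicate 1, and 8 or 9 without any other single library. Over all tested genes 50% were above 0.

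The members' log2 fold changes had a median of 0.28, against 0.00 over all tested genes, and this value depended on abundance and on single libraries. For the 4 members of 100 CPM and above the median was 0.03, from -0.09 (H2-Ab1) to 0.08 (H2-Eb1). The 6 below 100 CPM had a median of 0.34, from 0.26 to 1.22. Among all tested genes the medians of these classes were -0.06 and 0.02. Without 0Q replicate 3, the shallowest library, the members' median was 0.16, and without 100Q replicate 2 it was 0.17. The 95% intervals of the 4 abundant members all lay within 1.5-fold in either direction, as did those of 89.5% of the tested genes of that abundance. Of the 6 others 0 did, against 7.66% of the tested genes below 100 CPM, so changes of that size were not resolvable for them in these libraries. Libraries held 3675918 to 6755367 counts, except 100Q replicate 3 with 19386533.

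**Figure D2:**
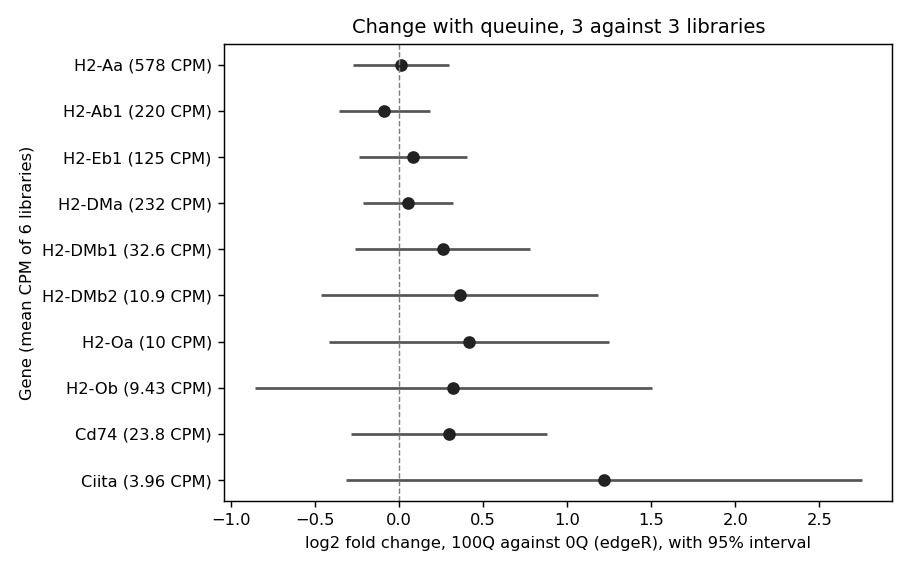
Log2 fold change of each member in 100Q against 0Q (point) with its 95% interval (line), from edgeR over 3 against 3 libraries; the mean CPM of the 6 libraries stands beside each name. All 10 intervals include 0, and they widen from the abundant I-A, H2-Eb1 and H2-DMa transcripts down to Ciita.

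The chains of the peptide-presenting molecules, together with H2-DMa, were the members measured with the smallest errors. H2-Aa, the alpha chain of I-A, stood at 666, 482 and 583 CPM without queuine (replicates 1, 2 and 3 in order, here and in what follows) and at 621, 492 and 628 CPM with queuine. In each group replicate 2 was the lowest, and the groups overlapped fully. The log2 fold change was 0.01 (SE 0.14), and the 95% interval ran from a fold of 0.826 to 1.23. H2-Ab1 (GRCm39 chromosome 17, 34476663 to 34488393), the beta chain of I-A, stood at 239, 218 and 222 CPM without queuine and at 199, 222 and 218 CPM with queuine. Here 100Q replicate 1 was the lowest library, and the other 100Q libraries were close to the lowest of 0Q, with a log2 fold change of -0.09 (SE 0.13, fold interval 0.781 to 1.13). H2-Eb1, the beta chain of I-E, stood at 126, 118 and 121 CPM without queuine and at 144, 114 and 128 CPM with queuine. The 100Q libraries spread on both sides of 0Q, and the estimate was 0.08 (SE 0.15). That estimate was -0.01 without 100Q replicate 1.

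The partner of H2-Eb1 was not detected. H2-Ea, the alpha chain of I-E, had 0 counts in each of the 6 libraries. A count of 0 allows a level of up to 0.833 CPM in the shallowest library and 0.159 CPM in the deepest, counting error only. C57BL/6 mice are known to carry a defect in this gene and to lack I-E at the cell surface. H2-Eb2 had 0 counts in the 3 libraries of 0Q and 6, 1 and 5 counts in those of 100Q, too few to be tested, although its promoter window holds the X and Y letters at the spacing of H2-Eb1. The class II pseudogenes H2-Pa and H2-Pb also had 0 counts in every library. H2-Aa and H2-Eb1 are annotated on opposite strands with 118 shared exonic bases (GRCm39 chromosome 17, H2-Aa 34493404 to 34506798 and H2-Eb1 34504236 to 34535648). Whether the libraries kept strand is not given in the sources used here, so some reads in that stretch could belong to either gene.

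H2-DM, the peptide editor, was represented mostly by its alpha chain. H2-DMa (chromosome 17, 34338515 to 34358958) stood at 240, 213 and 229 CPM without queuine and at 250, 227 and 230 CPM with queuine. The groups overlapped, with a log2 fold change of 0.05 (SE 0.13, fold interval 0.861 to 1.25). H2-DMb1 (34372046 to 34379204) stood at 25.7, 34.0 and 29.2 CPM without queuine and at 33.3, 38.97 and 34.4 CPM with queuine. 0Q replicate 2 fell among the 100Q libraries, and the estimate was 0.26 (SE 0.25), or 0.17 without 0Q replicate 1. H2-DMb2 (34362197 to 34370529), its neighbour on the chromosome, stood at 9.25, 7.33 and 12.2 CPM without queuine and at 11.98, 14.1 and 10.7 CPM with queuine. 0Q replicate 3 lay above both 100Q replicates 1 and 3, and the estimate was 0.36 (SE 0.39), or 0.56 without 0Q replicate 3 and 0.19 without 0Q replicate 2.

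The pair of DM beta genes shared reads in the authors' estimates. Their coding sequences were identical at 95.9% of 783 aligned bases, and 369 of the 1355 stretches of 50 bases in the H2-DMb1 transcript, or 27.2%, also occurred in a transcript of H2-DMb2. The expected counts were 136.34 and 48.66 in 0Q replicate 1, which add up to 185, and the sum was whole (within 0.005 counts) in 5 of the 6 libraries although neither gene's own value was. H2-DMb1 received 73.7%, 82.2% and 70.4% of the sum in 0Q and 73.7%, 73.3% and 76.2% in 100Q. 0Q replicate 2 stood highest in this share. With the counts of both genes added together the log2 fold change was 0.29, at an edgeR adjusted p of 0.999, so the sum also did not differ by the test. Of the 1413 stretches of 50 bases in the H2-DMb2 transcript, 431 (30.5%) occurred in transcripts of 301 other genes, and 369 of them in H2-DMb1. The single values of H2-DMb1 and H2-DMb2 are uncertain because of the division between them, and their sum is less so. Adding the 2 genes does not remove the stretches that H2-DMb2 shares with genes other than H2-DMb1.

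The chains of H2-DO, the inhibitor of H2-DM, had lower mean levels than all other members except Ciita, and their intervals were wide. H2-Oa (chromosome 17, 34311314 to 34314328) stood at 9.63, 6.77 and 9.44 CPM without queuine and at 11.98, 11.8 and 10.7 CPM with queuine. Each 100Q library was higher than every 0Q library, with a log2 fold change of 0.42 (SE 0.39), or 0.26 without 0Q replicate 2. The nearest libraries had counting intervals of 7.17 to 12.7 CPM (0Q replicate 1) and 9.25 to 12.3 CPM (100Q replicate 3), which overlap. H2-Ob (34457836 to 34473388), its partner, stood at 8.69, 14.1 and 1.94 CPM without queuine and at 5.51, 16.6 and 9.67 CPM with queuine. The cultures of each group differed more than the groups did: the exact Poisson 95% intervals were 0.782 to 4.01 CPM in 0Q replicate 3 and 11.5 to 17.2 CPM in 0Q replicate 2, which do not overlap. The estimate of 0.32 (SE 0.56) became 0.94 without 0Q replicate 2, -0.12 without 0Q replicate 3 and -0.14 without 100Q replicate 2. Reads without molecular identifiers are not independent molecules, so these intervals cover counting error only.

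Cd74, the chaperone of each new class II pair, was far less abundant than the I-A chains, although it is known as an abundant transcript of class II-positive cells. It stood at 22.9, 21.2 and 20.0005 CPM without queuine and at 24.9, 25.5 and 28.2 CPM with queuine. The 100Q libraries lay wholly above those of 0Q, and the log2 fold change was 0.30 (SE 0.28, fold interval 0.821 to 1.84). The counts behind it were 121, 150 and 72 in 0Q and 131, 121 and 533 in 100Q. The intervals of the nearest libraries overlapped, from 19.0 to 27.3 CPM in 0Q replicate 1 and from 20.8 to 29.6 CPM in 100Q replicate 1. All 6 Cd74 counts were whole, and 0 of the 1382 stretches of 50 bases in its canonical transcript occurred in a transcript of another gene. Mir5107, a microRNA gene annotated inside Cd74 on the same strand with 88 shared exonic bases, had 0 counts in all libraries. Whether reads of Cd74 were lost in another step was not tested, so its level is uncertain.

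Ciita (GRCm39 chromosome 16, 10297923 to 10347694), the class II transactivator, had the estimate farthest from 0 among the members and the widest interval. It stood at 1.13, 5.22 and 0.556 CPM without queuine and at 5.51, 5.48 and 5.87 CPM with queuine, which rest on 6, 37 and 2 counts and on 29, 26.09 and 111 expected counts. The 100Q libraries agreed closely with each other, while 0Q replicate 2 was close to them and 0Q replicates 1 and 3 were lower. The log2 fold change was 1.22 (SE 0.73), with a fold interval from 0.802 to 6.74. It was 2.66 without 0Q replicate 2, 0.80 without 0Q replicate 3, 0.88 without 0Q replicate 1 and 1.72 with the replicate number as a block, with edgeR adjusted p values from 0.757 to 1.00 over these and the other settings run. The groups did not overlap, but the counting intervals of 0Q replicate 2 (3.67 to 7.19 CPM) and 100Q replicate 2 (3.58 to 8.02 CPM) did. Dexi lies on the opposite strand with 633 exonic bases shared with Ciita, and it had 8, 28 and 0 counts in 0Q and 7, 16 and 43 in 100Q. Its part in the Ciita values was not tested.

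In all, 3 of the 10 members (H2-Oa, Cd74 and Ciita) had all 100Q libraries above all 0Q libraries, where 4.41% of the tested genes did. The reverse was true of 0 members and of 3.84% of the tested genes. The 3 genes were each below 30 CPM, and 0 of them passed the test.

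Per length of the canonical transcript, the class II genes spanned about 3 orders of magnitude, and the order of several neighbours was not resolved. With counts divided by the length of the canonical transcript, H2-Aa had 513 ± 67.1 CPM per kilobase (SD over 6 libraries). H2-DMa followed with 201 ± 11 and H2-Ab1 with 181 ± 10.3 CPM per kilobase, and the library ranges of these neighbours overlapped. H2-Eb1 had 73.7 ± 6.38 CPM per kilobase, below all libraries of H2-Ab1. H2-DMb1 (23.2 ± 3.28) and Cd74 (16.6 ± 2.11 CPM per kilobase) overlapped each other and were separate from H2-Eb1 above and H2-Oa below. H2-Oa (8.32 ± 1.59), H2-DMb2 (7.48 ± 1.64), H2-Ob (3.48 ± 1.99) and Ciita (0.529 ± 0.325 CPM per kilobase) each overlapped the next in order. With the longest annotated transcript as length the order at the top changed: H2-Aa had 179 ± 23.5, H2-Ab1 150.2 ± 8.58 and H2-DMa 112 ± 6.11 CPM per kilobase, and the ranges of H2-Aa and H2-Ab1 overlapped. With that length Ciita had 0.510 ± 0.313 CPM per kilobase, so the span was smaller. Scaling by length assumes that reads come from the whole transcript, which the sources used here do not state.

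**Figure D3:**
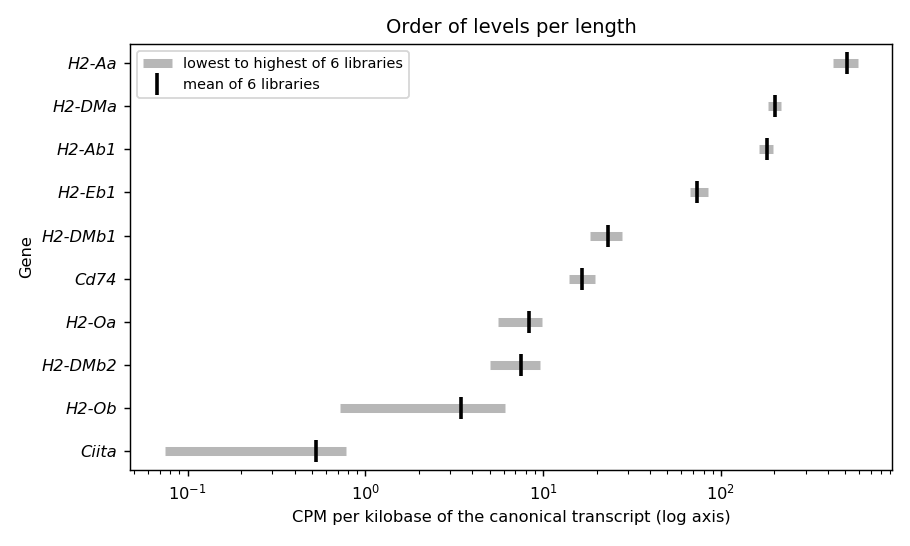
Level of each member per kilobase of its canonical transcript on a log axis, with the mean of the 6 libraries as a tick and the lowest to highest library as a bar. With this length H2-Aa stands above all others at 513 CPM per kilobase (with the longest transcript it overlaps H2-Ab1), and the bars of the 4 genes at the bottom overlap from one to the next.

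Ratios between partner chains were set beside each other in each library, since a heterodimer needs both. With canonical lengths, H2-Aa exceeded H2-Ab1 by 2.99, 2.37 and 2.82 times in 0Q and by 3.35, 2.39 and 3.10 times in 100Q. With the longest annotated transcript as length, which was the planned choice, the ratio had a geometric mean of 1.19 in place of 2.81, because the longest H2-Aa transcript (3223 bases) retains an intron and the canonical one has 1128 bases. The size of the ratio therefore depends on the transcript model. For this pair of genes the difference between groups does not, and this difference and all tests of ratios that follow are on the planned scale, where the log2 ratio was 0.20 ± 0.17 in 0Q and 0.30 ± 0.26 in 100Q (exact permutation p = 0.5). The beta chains H2-Eb1 and H2-Ab1 stood at 0.376, 0.387 and 0.388 in 0Q and 0.518, 0.366 and 0.419 in 100Q. The 0Q values were nearly equal, and the 100Q values spread around them (exact p = 0.4).

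H2-DMa exceeded the sum of H2-DMb1 and H2-DMb2 by 8.44, 6.32 and 6.79 times in 0Q and by 6.80, 5.26 and 6.27 times in 100Q. With the longest transcripts as length the geometric mean was 3.76 in place of 6.58. The groups overlapped, with a log2 difference of -0.23 (exact p = 0.2), which was -0.11 without 0Q replicate 1 and -0.13 without 100Q replicate 2. DM transcripts together stood at 0.297, 0.353 and 0.326 of the I-A transcripts in 0Q and at 0.349, 0.379 and 0.315 in 100Q (exact p = 0.3). The ratio of H2-Oa to H2-Ob ran from 1.08 to 10.3 over the 6 libraries, both extremes being in 0Q, so no stable proportion of the H2-DO chains could be read.

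Over 9 ratios tested, 2 had groups that did not overlap. H2-DMa over H2-Oa, the editor over its inhibitor, was 26.0, 32.7 and 25.1 in 0Q and 21.8, 19.9 and 22.6 in 100Q, a log2 difference of -0.37. Cd74 over the I-A transcripts was 0.0204, 0.0244 and 0.0201 in 0Q and 0.0244, 0.0289 and 0.0268 in 100Q, a log2 difference of 0.31 on this scale and 0.32 with the longest transcripts. On the canonical scale 0Q replicate 2 (0.02441) and 100Q replicate 1 (0.02442) were nearly tied. As stated, the level of Cd74 itself is uncertain. Each had an exact two-sided permutation p of 0.1, the smallest that this design allows, and an adjusted p of 0.45 over the 9 ratios. The ratio of Ciita to the I-A transcripts overlapped between groups through 0Q replicate 2 (exact p = 0.3). The size of these 3 ratios also changed with the length used: their geometric means were 15.0, 0.0385 and 0.00120 with the longest transcripts and 24.4, 0.0240 and 0.000593 with the canonical ones.

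**Figure D4:**
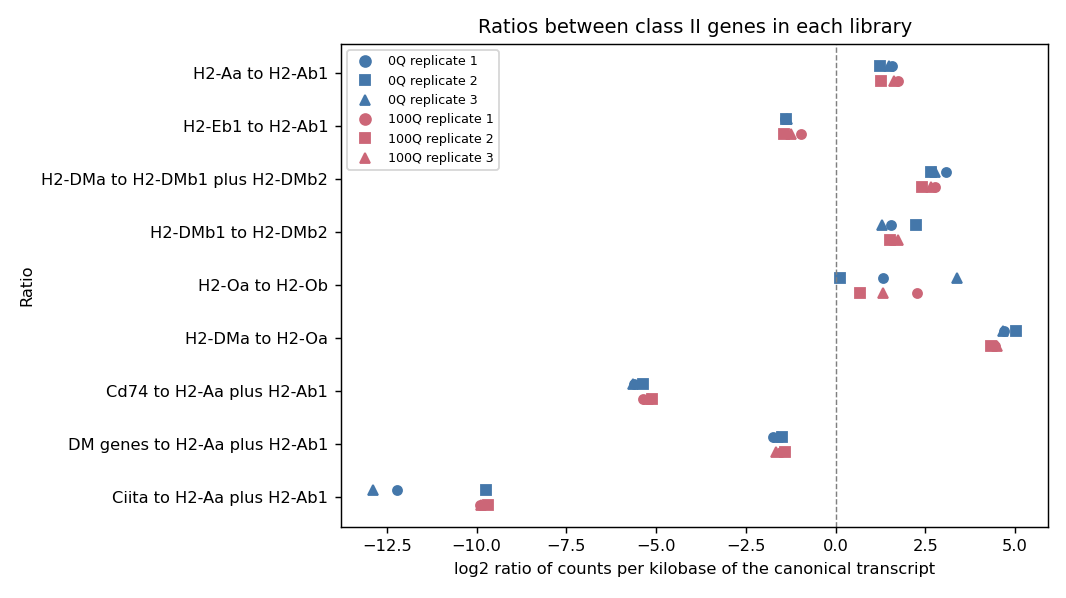
The 9 log2 ratios of counts per kilobase of the canonical transcript in each library, with 0Q in blue above and 100Q in red below in each line and a marker shape for each replicate number. Only H2-DMa to H2-Oa and Cd74 to H2-Aa plus H2-Ab1 show groups that do not overlap, and H2-Oa to H2-Ob spreads from 1.08 to 10.3 in linear terms. For the Cd74 ratio the nearest libraries of 0Q and 100Q are almost tied.

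The mean level of the I-A and I-E chains was set beside all other abundant genes. The 3 chains did not follow one another over the 6 libraries: Pearson r was 0.68 between H2-Aa and H2-Eb1, 0.10 between H2-Aa and H2-Ab1 and -0.60 between H2-Ab1 and H2-Eb1. The mean log2 level (of CPM plus 1) of H2-Aa, H2-Ab1 and H2-Eb1 was 8.09, 7.86 and 7.97 in 0Q and 8.04, 7.86 and 8.03 in 100Q. Among 1320 other genes at a mean of 100 CPM or more, the 5 most similar over the 6 libraries were Anxa1, Ctss, Ncoa4, Slc25a5 and Clec4n, with Pearson r from 0.984 to 0.989. Such values are a description, since the highest of many correlations over 6 points is high by selection. Ctss, the protease that trims Cd74, stood at 7265, 5919 and 6754 CPM without queuine and at 6963, 5942 and 6886 CPM with queuine, with replicate 2 lowest in each group as for H2-Aa. The libraries also differed in a length trend: across 6250 genes, deviations from the group mean correlated with transcript length at a Spearman rho of -0.24, 0.28 and 0.01 in 0Q and 0.01, 0.13 and -0.17 in 100Q. Replicate 2 had the highest value in each group, and 0Q replicate 3 and 100Q replicate 1 showed almost no trend. The part of this trend in the chains' levels was not tested.

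Class II promoters are read by proteins whose own transcripts were measured too. Of 10 promoter factors, 9 were tested and 0 passed, with 6 estimates above 0 and 3 below and a median log2 fold change of 0.05. Crebbp, a coactivator that acetylates histones, was the most abundant at 52.2 ± 11.1 CPM in 0Q and 54.4 ± 6.64 CPM in 100Q. Creb1, a factor of the X2 box, had the smallest p of the list and averaged 44.5 ± 10.8 CPM without and 33.1 ± 4.25 CPM with queuine (log2 fold change -0.42, SE 0.25). Rfx5, the DNA-binding subunit of RFX, had only 0 to 18.07 expected counts a library and was not tested. Of 12 genes upstream of Ciita, 10 were tested, 5 above and 5 below 0, and 0 passed. Irf8, a transcription factor of the dendritic and monocyte lineages, averaged 16.0 ± 4.71 CPM without queuine and 23.7 ± 4.91 CPM with queuine (log2 fold change 0.55, SE 0.33).

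Genes that act on class II molecules after transcription ranged widely in level. Of 8 genes of antigen and invariant chain processing, 0 passed; 5 estimates were positive and 3 negative, around a median of 0.03. Ctsd, an aspartic protease of the lysosome, averaged 23238 ± 6041 CPM without queuine and 21344 ± 3602 CPM with queuine. Sppl2a, which cleaves the last membrane-bound remnant of Cd74, had 56.3 ± 6.97 and 48.6 ± 3.62 CPM. Of 10 genes of class II traffic and turnover, 5 lay above and 5 below 0, and 0 passed. Among them Cd9, a tetraspanin, had 3602 ± 301 and 3500.2 ± 389 CPM, and Cd86, a costimulatory ligand whose protein shares its ubiquitin ligase with class II, had 18.3 ± 6.03 and 9.51 ± 2.00 CPM (log2 fold change -0.94, SE 0.37, edgeR adjusted p = 0.999).

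The class II genes lie among others on chromosome 17, and 5 of these neighbours were read for comparison. Tap1, a subunit of the class I peptide transporter, averaged 2.53 ± 1.31 CPM without queuine and 6.83 ± 3.13 CPM with queuine (log2 fold change 1.42, SE 0.64), and Psmb8, an immunoproteasome subunit, had 72.3 ± 6.09 and 60.7 ± 4.88 CPM. None of the 5 genes passed (0 called); 2 estimates were positive and 3 negative, around a median of -0.15. Brd2 overlaps H2-DMa on the opposite strand with 510 shared exonic bases, and its 62.0 to 433 counts a library were far below those of H2-DMa.

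Markers of the cell types that such cultures can hold were read beside the class II genes. The label is dendritic cell, and Itgax, the gene of CD11c, averaged 98.6 ± 26.8 CPM without queuine and 140.2 ± 14.7 CPM with queuine, while Flt3 and Zbtb46, which mark classical dendritic cells, had means of 3.33 CPM or less in each group. All 11 dendritic cell markers were detected, and 0 passed the test. Their estimates went both ways, 7 above 0 and 4 below (Kmo at -1.06, Cd86 at -0.94, Batf3 at -0.49 and Ccr7 at -0.18), with a median of 0.06. Their summed level ran from 496 to 512 CPM in 0Q and from 535 to 680 CPM in 100Q. Its largest part was Ccl17, a chemokine of dendritic cells, with 255 ± 25.4 and 335 ± 65.4 CPM. The 9 neutrophil markers summed to 16883 to 19800 CPM in 0Q and 14081 to 17158 CPM in 100Q, and 0 passed the test. Of the 9 estimates 9 were below 0 with TMM, with DESeq2's size factors, with upper-quartile factors and with library totals alone, and 8 were without 0Q replicate 1, 0Q replicate 2 or 100Q replicate 3. Among all tested genes at 100 CPM or more 32.2% were above 0. The 10 macrophage and monocyte markers summed to 1972 to 2277 CPM in 0Q and 1769 to 2099 CPM in 100Q. The 5 markers of mast cells and basophils summed to 221 to 333 and 202 to 244 CPM, and 0 passed the test. All 5 of their estimates were below 0 with TMM (median -0.40), under each other scaling and with each library left out. These fits share most of their libraries and are not independent. Of these markers 0 had an unadjusted edgeR p under 0.05, and among all tested genes below 100 CPM 52.6% were above 0.

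B cells also carry class II and H2-DO, so their markers bear on those genes. The 8 B cell markers summed to 82.8 to 95.9 CPM in 0Q and 75.7 to 87.8 CPM in 100Q. Ighm, the heavy chain of IgM, gave most of it at 55.4 ± 3.24 and 53.2 ± 6.87 CPM. Cd79a, Pax5 and Blk had 0 to 20 counts a library and were not tested. T cell markers summed to 8.64 CPM or less in every library, and Cd3e had 0 counts. The part of any of these cell types in the class II values was not tested.

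Because queuosine reads Asn, Asp, His and Tyr codons, the codons of the members were counted in the longest coding sequence of each. The members used fewer codons ending in U than most expressed genes. In H2-Eb1, 6 of 35 such codons ended in U (17.1%), and in H2-Ab1 8 of 38 (21.1%). Lower shares were found in only 1.02% and 2.55% of 8759 tested genes with at least 20 such codons. H2-Aa, the partner of H2-Ab1, had 14 of 39 (35.9%), including 7 Tyr UAU codons against 1 UAC. The highest share was that of H2-Ob with 20 of 47 (42.6%), still below the median of the tested genes, 44.0%. The members' median was 30.7%.

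Other members lay between these. H2-Oa had 24.2%, H2-DMa 26.5%, Cd74 27.3%, Ciita 34.1%, H2-DMb2 36.8% and H2-DMb1 39.5%. Over the 10 members together AAC outnumbered AAU for Asn by 87 to 30, and CAC outnumbered CAU for His by 73 to 28. For Asp the codons GAC and GAU were used 104 and 64 times, and for Tyr UAC and UAU 67 and 31 times. The density of these codons was ordinary, with a median of 13.7% of all codons against 13.9% in the tested genes. The members' other codons also ended in G or C more often, at a median of 67.4% against 58.0%. The part of this base composition in the low U share was not tested. These are properties of the sequences, and translation was not measured in these libraries.

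**Figure D5:**
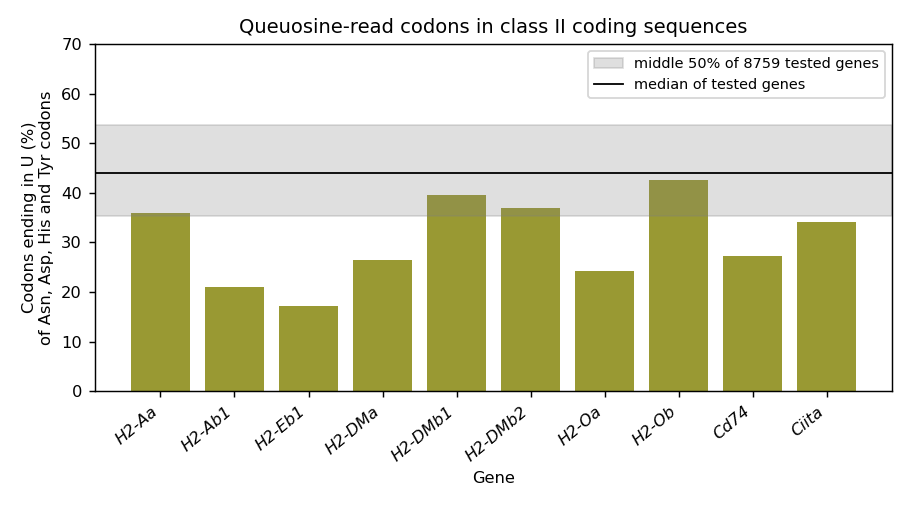
Percentage of Asn, Asp, His and Tyr codons that end in U in the longest coding sequence of each member (bars), with the median of 8759 tested genes as a line and their middle 50% (35.3% to 53.7%) as a grey band. All 10 members lie below the median, and 6 of them lie below the band.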

How the data were processed

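Expected counts of mRNA sequencing reads were deposited by the authors for 6 libraries (3 of 0Q, 3 of 100Q), neither normalized nor pooled. FastQC, STAR and RSEM with mm39 (GRCm39) are named, per the submitters' processing notes; their versions, the annotation release and the strand setting: not given in the sources used here. Symbols, positions and lengths came from GENCODE mouse release 39; 502 identifiers had no match, and 0 columns were unused. Counts were rounded and tested with edgeR 4.0.16 (R 4.3.3): filterByExpr, TMM, robust glmQLFit, glmQLFTest of 100Q against 0Q, threshold 0.05. CPM used library totals over tested genes times TMM factors. Standard errors were the absolute log2 fold change over the root of F. Ratios used counts plus 0.5 and an exact permutation test. Totals were 3675918 to 19386533 counts per library, and a floor of 3 counts was 0.159 to 0.833 CPM. The fit was tested on simulated data. No 2 libraries agreed within sampling noise. Alternatives were DESeq2 1.42.0, limma-voom (limma 3.58.1), other scalings and filters, a replicate block and each library left out; canonical transcript length for the ratios and other settings for levels and marker counts were chosen after seeing the data. The members and lists were chosen with earlier results of these data known. Named genes were all members, the most abundant and smallest-p gene of each list, and the 5 most similar in pattern, except 1 gene that is not reported here; other genes in the text were named after their values were seen.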

Additional observations from a re-analysis of the deposited data

How the results depend on the processing

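The count of members past the threshold was 0 in every setting run. The count over all genes was 0 except without 0Q replicate 1 (2) and without 0Q replicate 2 (1); leaving out single libraries thus gave 0 to 2. The members' median of 0.28 ranged from 0.16 (without 0Q replicate 3) to 0.31 over omitted libraries and was 0.22 without 0Q replicate 2 and 0.17 without 100Q replicate 2; the cause was not tested. With the replicate number as a block it was 0.28 and no call changed. Same-numbered libraries had deviations correlated at 0.05, 0.19 and -0.06, and 1 of the 6 correlations between different numbers reached 0.23, so the numbers were not taken to pair the cultures. H2-Aa was at -0.0027 with DESeq2's size factors and -0.0025 by DESeq2. Over 60 member values with a library left out 7 changed sign: H2-Aa ranged from -0.11 to 0.13, H2-Eb1 from -0.015 to 0.16, H2-DMa from -0.0015 to 0.095 and H2-Ob from -0.14 to 0.94. For the 9 differences in chain ratios, leaving out 1 of 3 libraries cannot move a group mean by 1 SD, so that measure cannot show stability. Without single libraries the difference in H2-Oa to H2-Ob ran from -0.92 to 0.71. That in H2-DMb1 to H2-DMb2 ran from -0.30 to 0.18, and the other differences kept their sign. With other lengths or pseudocounts the differences moved by less than 1 SD in 36 of 36 cases. Length cancels from such a difference when the ratio is of 1 gene to 1 gene. The ratio levels moved by more than 1 SD in 18 of 36 cases. Members below 100 CPM had the widest intervals, and H2-Ob also differed between cultures by more than counting error. The difference in H2-DMa to the DMb sum ran from -0.32 to -0.11 without single libraries.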
